A study of Mus musculus with 15 samples.

Results

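Immune signalling genes of the dorsal root ganglion (DRG) were described across deletion of a microRNA cluster and nerve injury. A fixed list of 42 mouse genes was taken, made of chemokines, cytokines, their receptors, and complement components with their inhibitors. A gene was kept where its row held at least 10 counts in at least 3 of the 15 libraries. In all 33 were kept, of 39179 gene identifiers in the table, and all 33 were among the 16976 genes with enough counts to be tested. They were 9 of 14 CC chemokines, 5 of 7 CXC chemokines, 5 of 5 chemokine receptors, 5 of 6 genes of the interleukin-1 and TNF system, 3 of 3 TGF-beta ligands, 4 of 5 complement components and 2 of 2 complement regulators. The 9 that were not kept were Ccl3, Ccl4, Ccl5, Ccl19, Ccl24, Cxcl1, Cxcl13, Tnf and Cfb. Their highest counts in any library were between 4 and 26, so at this depth their levels could not be compared between groups. About 79.5% of the exon bases of Cfb overlap Gm20547, which had 0 counts, on the same strand. For Ccl19, 52% of its 50-base stretches also occur in other genes, chiefly Gm2564. How such reads were assigned is not stated, so low counts of Cfb and Ccl19 need not mean low levels. Just inside the rule lay Cxcl14 with 4 libraries at the minimum, Il1b with 6 and Cxcl9 with 7, and just outside lay Ccl3, Ccl5 and Cxcl13 with 1 library each.

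Messenger RNA came from the lumbar 4 to 6 DRG, which hold the cell bodies of the sensory neurons that serve the hind limb. The knockout mice carried Wnt1-Cre; mirflox/flox, in which both copies of the miR-183 cluster (miR-183, miR-96 and miR-182) are floxed. Control mice carried Wnt1-Cre alone or were labelled wt. All were 3 to 6 months old and of a mixed background, mostly C57bl6. Spared nerve injury (SNI) ties and cuts the common peroneal and tibial branches of the sciatic nerve and leaves the sural branch. The groups were knockout SNI (replicates 13, 19 and 21), control SNI (15, 18 and 23), knockout naive (4, 5, 8 and 9) and control naive (1, 2, 3, 6 and 7), and each library was 1 animal. Control SNI 18 and 23 and control naive 7 were wt, so they lack the Cre that every knockout and the other controls carry. Wnt1-Cre acts in neural crest cells, from which DRG neurons, satellite glia and Schwann cells descend, whereas macrophages and endothelium come from other lineages. The sources used here do not state the time after injury or which side was sampled.

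Chemokines are small secreted proteins that draw leukocytes along a gradient through G protein-coupled receptors. Interleukin-1 and TNF are early inflammatory cytokines that switch on NF-kappaB through their receptors, while TGF-beta ligands restrain inflammation and drive matrix production. Complement is a cascade of plasma proteases and opsonins that also tags synapses and debris for removal. In injured sensory ganglia these systems are known for recruiting macrophages and for sensitising nociceptive neurons.

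Libraries held 5252920 to 10822762 counts, and 3 counts, the most that a count of 0 allows, stood for 0.273 to 0.647 CPM (counts scaled to a common library size) in single libraries, by counting error alone. The deletion could not be read from the microRNA genes, since Mir183, Mir96 and Mir182 had 0, 1 and 2 counts over all libraries. Control SNI 23 was the shallowest library and had 7.43% mitochondrial counts, against 2.26 to 3.60% in the others. Markers of injured neurons (7 of 7 tested genes) rose in both genotypes after SNI. Their sum was 390 to 419 CPM in knockout naive and 224 to 286 CPM in control naive libraries. After SNI it was 1254 to 1847 CPM in knockout and 914 to 1107 CPM in control libraries. In each condition 1 of the 7 was called higher in knockout. The median log2 change of the 7 between genotypes was -0.21 in naive and 0.52 in injured animals. Xist was high in knockout SNI 19, control SNI 15 and 23, knockout naive 8 and 9, and control naive 6, and the labels give no sex. Skeletal muscle markers summed to 143 to 1117 CPM in knockout SNI, 5.01 to 268 CPM in control SNI, 15.7 to 181 CPM in knockout naive and 4.28 to 91.5 CPM in control naive libraries, and none of the 6 genes was called in any comparison. Injured and naive animals carry separate ranges of animal numbers (948 to 976 and 1041 to 1082), so injury and that order cannot be told apart. The injured knockouts (948 to 956) and injured controls (974 to 976) do not overlap either.

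The deleted microRNAs are shown first because their seeds, in capitals (bases 2 to 8), define the sites that could tie a member to the cluster. The mature sequences, from RefSeq on GRCm38.p6, lie on the minus strand of chromosome 6 (chr6:30169711-30169732, chr6:30169506-30169528 and chr6:30165962-30165986 in the order given).
miR-183-5p: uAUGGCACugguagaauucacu
miR-96-5p: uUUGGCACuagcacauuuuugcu
miR-182-5p: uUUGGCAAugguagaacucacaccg
The 3 seeds are alike, but no pair shares a seed in full. A match to bases 2 to 8 followed by A (an 8mer: GTGCCATA, GTGCCAAA and TTGCCAAA for miR-183-5p, miR-96-5p and miR-182-5p) was found in the longest annotated 3' UTR of 3 of the 33 members. These sites are the strongest seed matches among the members (GENCODE M21, GRCm38, site in capitals).
Tnfrsf1a, miR-96-5p, chr6:125362222-125362251, plus strand: gccagctgaggGTGCCAAAgacaggattgt
Il1rap, miR-182-5p, chr16:26729494-26729523, plus strand: cttgaaattcaTTGCCAAAtgctggaactg
Il18, miR-182-5p, chr9:50581601-50581630, plus strand: cactttcttgcTTGCCAAAaggaagatgat
That is 9.09% of the members, against 10.2% of the 14431 tested genes with an annotated 3' UTR. With the shorter 7mer-m8 matches (bases 2 to 8 without the A) the count was 9 of 33, or 27.3%, against 29.5%, so seed matches were about as frequent among the members as among all tested genes. Members with a 7mer-m8 site beside these were Ccl9 and Ccl25 (miR-96-5p), Cxcl10 (miR-183-5p), Cxcl12 and Ccr2 (miR-182-5p) and Il1r1 (miR-183-5p and miR-182-5p). The Il1r1, Ccl25 and Ccr2 sites are shown because these genes were called below.
Il1r1, miR-183-5p, chr1:40314027-40314056, plus strand: caatggctgtcGTGCCATcttccttctgtg
Il1r1, miR-182-5p, chr1:40314605-40314634, plus strand: atggtatagatTTGCCAAggcctttatttt
Ccl25, miR-96-5p, chr8:4359578-4359607, plus strand: taggcatgccaGTGCCAAtgaactcactga
Ccr2, miR-182-5p, chr9:124108451-124108480, plus strand: gagctcttatcTTGCCAAggttgaaaatag
A match is a description of these letters and not a measured target.

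Levels per length were compared as CPM per kilobase of exon in the 5 control naive libraries. The complement inhibitor genes led. Cd55, which speeds the decay of the enzymes that cleave C3, had 91.8 ± 7.03 CPM per kilobase (SD, n = 5), and Cd59a, which blocks the membrane attack complex, had 63.8 ± 7.59. Ackr1, a decoy receptor of venular endothelium and red cells that binds many chemokines without signalling, followed at 53.7 ± 20.3. The next was Ccl11, eotaxin, at 12.98 ± 3.73, and the ligand genes Il1b, Cxcl9, Ccl28 and Cxcl14 all lay below 1 CPM per kilobase. The ranges of neighbours in this order overlapped for 29 of 32 neighbouring pairs, Cd59a and Ackr1 among them, so most of the order is loose. The pairs that did not overlap were Cd55 over Cd59a, Ackr1 over Ccl11 and Tgfb3 over Ccl27a. About 25.7% of the exon bases of Ackr1 overlap exons of Cadm3 on the same strand, and Cadm3, a neuronal adhesion gene, stood at 495 ± 47.7 CPM (SD, n = 5) in the same libraries. The rule by which reads in that overlap were assigned is not stated in the labels. Cadm3 rose in knockout SNI against knockout naive (686 ± 71.0 and 446 ± 42.3 CPM, log2 0.62, adjusted p = 0.0104), where Ackr1 did not pass.

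**Figure D1:**
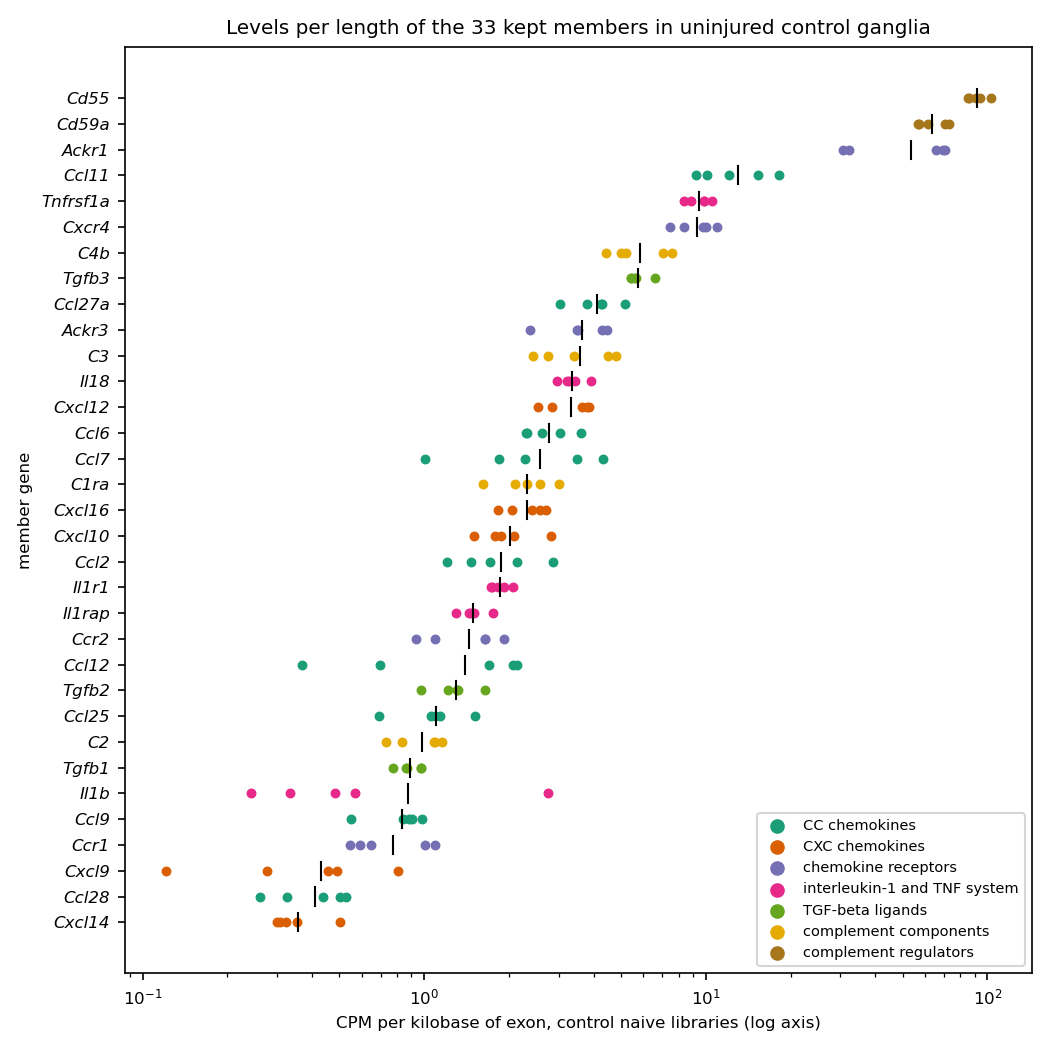
CPM per kilobase of exon on a log axis for the 33 kept members, ordered by mean. Points are the 5 control naive libraries, the black bar is their mean and colours mark the role. Cd55, Cd59a and Ackr1 stand above the rest, and Cxcl14 (0.357) is the lowest.

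Knockout against control without injury asks which members differ between the genotypes in resting ganglia. Ccl25, the ligand of Ccr9 that guides T cells to thymus and gut, was lower in knockout, and none of the other 32 members passed the test. Ccl25 had 2.03, 2.08, 2.19 and 2.48 CPM in the knockout naive libraries, against 8.47, 8.15, 5.14, 7.83 and 11.3 CPM in the control naive ones. Every knockout value lay below every control value in these naive libraries, whereas the genotypes overlapped for Ccl25 after injury (below). Ccl25 fell by 1.90 on the log2 scale (SE 0.396, 95% interval -2.74 to -1.05, edgeR quasi-likelihood test, Benjamini-Hochberg adjusted p = 0.0216 over 16976 genes). That is 1 of 33 members called, or 3.03%, against 1.89% of all tested genes. At an unadjusted p under 0.05 it was 3 of 33, or 9.09%, against 11.7% of all genes. With 1 member called, these shares do not set the members apart from genes at large. The call of Ccl25 was lost on leaving out any knockout naive library or control naive 1, 2, 6 or 7 (adjusted p 0.0502 to 0.0899), while the log2 change stayed between -2.03 and -1.75 over all 15 omissions. Naive animal numbers fall into 2 ranges that each hold both genotypes (1041 to 1056 and 1079 to 1082). With the range as a term in a fit of the naive libraries, a setting added after the data were seen, Ccl25 had a log2 change of -1.92 (adjusted p = 1.12e-05) and Ccl28 was called too (log2 0.86, adjusted p = 0.0300). That made 2 of 33 members, or 6.06%, against 5.83% of all tested genes. In bulk ganglia, fewer cells of a type and less RNA per cell cannot be told apart, here and below.

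Ccl28, a mucosal chemokine that signals through Ccr10, was the other member whose naive groups did not overlap. It had 3.96, 2.97, 3.23 and 4.83 CPM in knockout naive libraries, against 1.58, 1.26, 2.43, 2.55 and 2.12 CPM in control naive ones (log2 0.89, SE 0.331, adjusted p = 0.261). Non-overlap of these groups held for 2 of 33 members and 9.63% of all tested genes. Ccl27a, the skin chemokine that shares Ccr10, had 11.9, 13.5, 12.6 and 15.9 CPM in knockout naive libraries, against 10.04, 7.24, 8.96, 12.3 and 10.2 CPM in control naive ones, which overlap (log2 0.46, SE 0.181, adjusted p = 0.297). About 45% of the 50-base words of Ccl27a also occur in other annotated genes, so its level is uncertain where reads were split. None of the 5 CXC chemokines, 5 receptors, 5 interleukin-1 and TNF genes, 3 TGF-beta ligands, 4 complement components or 2 regulators was called, and the median log2 change of the 33 was -0.06, against 0.00 over all genes. The 8 site-bearing members other than Ccl25 had log2 changes between -0.22 (Ccr2) and 0.25 (Il18), with Tnfrsf1a at -0.00 (SE 0.128) and Il1rap at -0.06 (SE 0.128), and none was called. The 95% interval of Tnfrsf1a, the member with the miR-96-5p 8mer, was -0.27 to 0.27, and that of Il1r1 was -0.32 to 0.31.

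Injury against naive in knockout animals gave the most member calls, and the receptors of the early cytokines were among those that rose. In all, 6 members changed at an adjusted p under 0.05: Il1r1, Tgfb1, Tnfrsf1a and Ccr2 rose, and Ccl27a and Ccl28 fell. These are 6 of 33, or 18.2%, against 10.1% of all tested genes, with 4 higher against 7.17% and 2 lower against 2.94%. The median log2 change of the members was 0.27, against -0.02 over all genes, and 25 of 33 were positive, against 47.6% of all genes. That rests in part on knockout SNI 19, without which the median was 0.12 and 19 of 33 were positive. The number called was 3 (9.09%) without knockout SNI 19, knockout SNI 21 or knockout naive 9, where 3.41%, 4.66% and 7.40% of all tested genes were called. It was 10 (30.3%) without knockout SNI 13 or control SNI 23, where 9.44% and 25.6% of all tested genes were called. Groups did not overlap for 9 of 33 members (7 higher, 2 lower), or for 34.2% of all tested genes. The non-overlapping ones beside the 6 called were Cxcl12, Tgfb3 and Cd59a, all higher.

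Il1r1, the receptor through which interleukin-1 signals, had the smallest p of any member. It had 25.9, 30.5 and 26.4 CPM in knockout SNI libraries, against 13.3, 11.6, 11.8 and 10.2 CPM in knockout naive ones. The lowest injured value was well above the highest naive one, and the level rose by 1.23 on the log2 scale (SE 0.163, 95% interval 0.89 to 1.58, adjusted p = 1.5e-04). This call was kept in all 15 omissions and all 8 other settings. In control animals Il1r1 had 18.7, 29.3 and 16.0 CPM after SNI, against 11.6, 12.2, 13.2, 11.1 and 10.98 CPM in naive libraries. It was the one member called for injury in controls (log2 0.87, SE 0.157, 95% interval 0.54 to 1.20, adjusted p = 0.00425). It kept that call in all 15 omissions, although control SNI 18 was the highest and without it the log2 change was 0.56 (adjusted p = 0.0419). With only these 2 groups in the fit the adjusted p was 0.0539.

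Other genes of the interleukin-1 system did not pass the test. Il1rap, the accessory chain that Il1r1 needs to signal, had 14.4, 17.3 and 15.2 CPM in knockout SNI libraries, against 16.2, 18.1, 16.8 and 13.7 CPM in knockout naive ones (log2 -0.05, SE 0.147, 95% interval -0.36 to 0.26, adjusted p = 0.847). Il1b, the ligand, lay between 0.417 and 5.23 CPM over the 15 libraries and was not called in any comparison. Its highest value was that of 1 naive control (replicate 3), and its SEs of 0.647 or more on the log2 scale leave wide intervals. Il18, a related cytokine, lay between 1.77 and 7.55 CPM and was not called either.

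Tnfrsf1a, the main signalling receptor of TNF, had 31.8, 42.9 and 35.4 CPM in knockout SNI libraries, against 27.1, 24.4, 21.3 and 25.5 CPM in knockout naive ones, which do not overlap. It rose by 0.58 on the log2 scale (SE 0.143, adjusted p = 0.0168). That call was lost without knockout SNI 19 (adjusted p = 0.129) or knockout naive 8 (adjusted p = 0.0546). In controls it had 27.0, 36.9 and 23.7 CPM after SNI, against 25.5, 21.7, 22.97, 27.1 and 25.5 CPM in naive libraries (log2 0.26, SE 0.139, adjusted p = 0.377), and only control SNI 18 lay above the naive range by a wide margin. Tnf itself had at most 5 counts in a library.

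Tgfb1, the TGF-beta ligand most tied to inflammation and scarring, had 6.45, 8.24 and 10.3 CPM in knockout SNI libraries, against 5.08, 2.88, 2.76 and 4.05 CPM in knockout naive ones. All injured values were higher, and Tgfb1 rose by 1.19 on the log2 scale (SE 0.211, 95% interval 0.74 to 1.63, adjusted p = 0.00217), a call kept in all 15 omissions and 8 other settings. In controls the groups did not overlap either, at 5.21, 6.50 and 6.47 CPM after SNI, against 4.92, 3.91, 4.39, 4.92 and 4.34 CPM in naive libraries, but the change was not called (log2 0.42, SE 0.208, adjusted p = 0.342). Tgfb2, which acts in development and glia, had 5.69, 8.52 and 8.50 CPM in knockout SNI, against 6.30, 6.54, 6.75 and 6.79 CPM in knockout naive libraries. Tgfb3 was the ligand of highest level, at 21.2, 21.5 and 23.4 CPM in knockout SNI, against 17.9, 19.04, 16.3 and 19.9 CPM in knockout naive libraries. Neither was called (log2 0.21 and 0.27, adjusted p = 0.477 and 0.254).

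Ccr2, the monocyte receptor for Ccl2, Ccl7 and Ccl12, had 12.1, 15.1 and 13.7 CPM in knockout SNI libraries, against 6.81, 9.81, 8.55 and 8.49 CPM in knockout naive ones. It rose by 0.70 on the log2 scale (SE 0.215, adjusted p = 0.0489), just under the threshold. The call was lost without any 1 of 10 libraries, namely any knockout library, control naive 6 or 7, or control SNI 18 (adjusted p 0.0515 to 0.194), with Xist as a covariate (0.0571), and without knockout SNI 19 and control SNI 23 together (0.0840). In controls it had 10.3, 13.9 and 14.9 CPM after SNI, against 6.30, 7.35, 12.98, 11.1 and 11.1 CPM in naive libraries, which overlap (log2 0.40, SE 0.207, adjusted p = 0.365). Macrophage markers (14 genes) moved beside it: they summed to 442, 633 and 472 CPM in knockout SNI, against 324 to 439 CPM in knockout naive libraries, and to 349.9, 498 and 629 CPM in control SNI, against 271 to 374 CPM in control naive libraries. Of the 14, 4 rose in each genotype, with Csf1r at 0.94 and 0.55 and Cx3cr1 at 1.30 and 1.55 on the log2 scale in knockout and control. Endothelial markers (7 genes) summed to 96.7, 112 and 120.04 CPM in knockout SNI, against 72.5 to 90.9 CPM in knockout naive libraries, and 2 of the 7, Cdh5 and Flt1, rose. In controls they summed to 96.1, 116 and 81.4 CPM after SNI, against 80.3 to 85.4 CPM in naive libraries, and none passed. The part of macrophage, endothelial and skeletal muscle markers in the changes of Ccr2, Il1r1, Tnfrsf1a and Tgfb1 was not tested.

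The 2 members that fell were the Ccr10 ligands. Ccl28 had 1.77, 1.89 and 0.300 CPM in knockout SNI libraries, against 3.96, 2.97, 3.23 and 4.83 CPM in knockout naive ones, and fell by 1.50 on the log2 scale (SE 0.415, adjusted p = 0.0317). Without knockout SNI 21, the lowest, the log2 change was -1.01 (adjusted p = 0.113), and the call was also lost without knockout naive 4, 8 or 9. Ccl27a had 7.08, 7.95 and 6.90 CPM in knockout SNI libraries, against 11.9, 13.5, 12.6 and 15.9 CPM in knockout naive ones, and fell by 0.88 (SE 0.216, adjusted p = 0.0173). That call was lost without knockout SNI 19 or 21 or knockout naive 9 (adjusted p 0.0545 to 0.0757). Beside it, Il11ra1, whose exons meet those of Ccl27a by 8 bases on the opposite strand, stood at 16.4 ± 1.46 CPM in knockout SNI (SD, n = 3) and 25.5 ± 1.53 CPM in knockout naive libraries (n = 4), with a log2 change of -0.64 (adjusted p = 0.0506). In controls neither chemokine was called. Ccl28 had 1.88, 2.89 and 1.08 CPM after SNI, against 1.58, 1.26, 2.43, 2.55 and 2.12 CPM in naive libraries, and Ccl27a had 5.63, 9.29 and 12.5 CPM, against 10.04, 7.24, 8.96, 12.3 and 10.2 CPM.

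**Figure D2:**
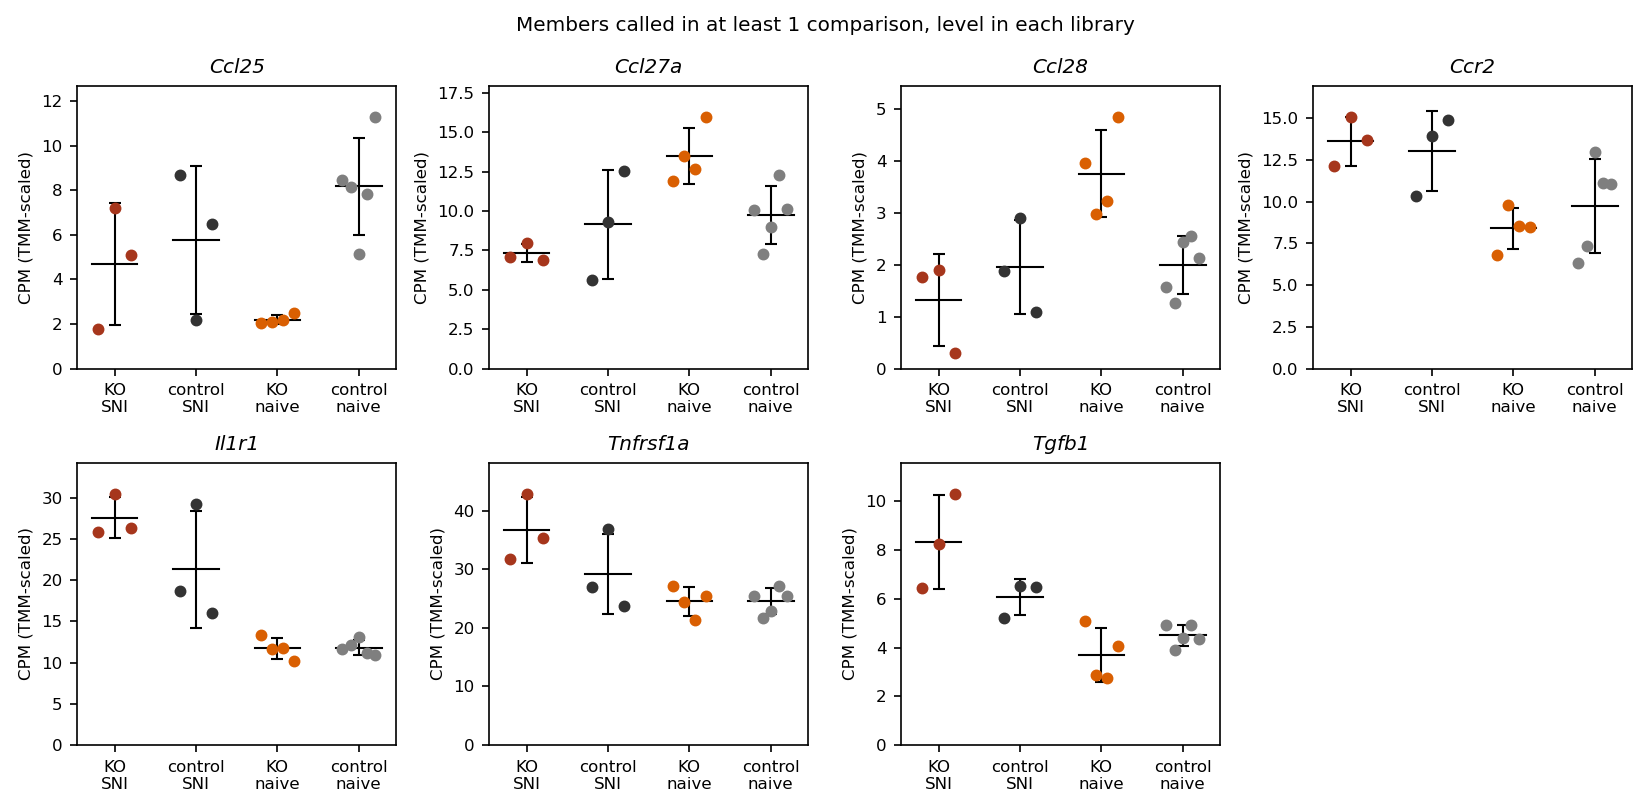
TMM-scaled CPM of the 7 members called in at least 1 comparison, with 1 point per library, the mean as a horizontal bar and ± 1 SD as whiskers (KO is knockout, n = 3, 3, 4 and 5 from left to right). Il1r1 is higher in both SNI groups than in the naive ones, Ccl25 is low in all 4 knockout naive libraries, and Ccl27a and Ccl28 are highest in knockout naive libraries.

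The start regions of Il1r1, Tgfb1 and Tnfrsf1a are shown because these 3 interleukin-1, TNF and TGF-beta members were called higher in injured knockouts. They run from 250 bases before to 50 after the annotated start (RefSeq, GRCm38.p6). Capitals mark a motif match on either strand.
Il1r1, chr1:40266336-40266635, plus strand, NF-kappaB consensus: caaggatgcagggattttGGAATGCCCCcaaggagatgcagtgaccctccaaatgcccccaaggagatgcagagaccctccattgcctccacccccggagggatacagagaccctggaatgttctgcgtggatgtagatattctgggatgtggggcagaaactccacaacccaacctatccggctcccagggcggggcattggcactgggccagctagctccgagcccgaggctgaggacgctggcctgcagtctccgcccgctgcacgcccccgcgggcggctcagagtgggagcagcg
Tgfb1, chr7:25686752-25687051, plus strand, NF-kappaB consensus: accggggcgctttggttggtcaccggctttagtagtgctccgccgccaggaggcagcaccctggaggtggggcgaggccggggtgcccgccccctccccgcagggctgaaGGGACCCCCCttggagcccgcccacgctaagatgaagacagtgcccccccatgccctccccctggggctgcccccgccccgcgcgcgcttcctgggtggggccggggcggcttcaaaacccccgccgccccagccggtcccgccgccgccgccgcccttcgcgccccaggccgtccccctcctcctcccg
Tnfrsf1a, chr6:125349473-125349772, plus strand, STAT motif TTCNNNGAA: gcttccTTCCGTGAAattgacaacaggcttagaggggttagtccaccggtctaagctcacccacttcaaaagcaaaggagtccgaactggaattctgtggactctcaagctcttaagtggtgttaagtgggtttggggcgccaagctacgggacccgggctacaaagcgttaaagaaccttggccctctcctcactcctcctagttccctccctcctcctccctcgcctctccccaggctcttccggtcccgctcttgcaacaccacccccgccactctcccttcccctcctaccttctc
Il1r1 has a second annotated start (chr1:40224830-40225129) whose window held no match. Windows were found for 31 of the 42 listed genes. These genes had 35 windows. The NF-kappaB consensus occurred in 7 of the 35, against 8.46% of all 32851 windows, the AP-1 motif TGANTCA in 5, against 7.81%, the STAT motif in 3, against 8.30%, and the CRE motif TGACGTCA in 0, against 1.79%. The window of Ccr2 held none of the motifs. A match says only that these letters are present.

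In control animals, injury against naive called 1 of 33 members (Il1r1, above), or 3.03%, against 2.48% of all tested genes. At an unadjusted p under 0.05 it was 9 of 33, or 27.3%, against 15.7%, with 8 of the 9 higher. The median log2 change was 0.26, against 0.02 over all genes, and 27 of 33 members were positive, against 53.6% of all genes. Groups did not overlap for 3 of 33 (Cxcl16, Il1r1 and Tgfb1, all higher), or for 8.21% of all tested genes. Ccl12, a ligand of Ccr2, and Cxcl16, a membrane-bound ligand of Cxcr6, lay just past the threshold. Ccl12 had 0.834, 3.51 and 6.91 CPM in control SNI libraries, against 0.197, 1.15, 0.373, 0.911 and 1.11 CPM in control naive ones (log2 2.19, SE 0.560, adjusted p = 0.0501). The injured libraries ran from within the naive range to far above it. Cxcl16 had 8.45, 13.9 and 17.7 CPM in control SNI libraries, against 8.17, 5.51, 7.28, 6.19 and 7.75 CPM in control naive ones (log2 0.90, SE 0.233, adjusted p = 0.0504). About 18.3% of its exon bases overlap Zmynd15 on the opposite strand, which stood at 7.54 ± 1.79 CPM in control SNI (SD, n = 3) and 4.80 ± 0.535 CPM in control naive libraries (n = 5). Control SNI 15 was the lowest of its group for 18 of the 33 members (54.5%), against 33.2% of all tested genes. Without it 7 members were called (21.2%, against 8.74% of all tested genes): Il1r1, Ccl2, Ccl9, Ccl12, Cxcl16, Ccr1 and Cd59a, all higher. Leaving out both wt SNI libraries and the wt naive library, which leaves control SNI 15 alone on the injured side and lets it vary like the other groups, gave 18 of 33 positive and a median of 0.02.

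**Figure D3:**
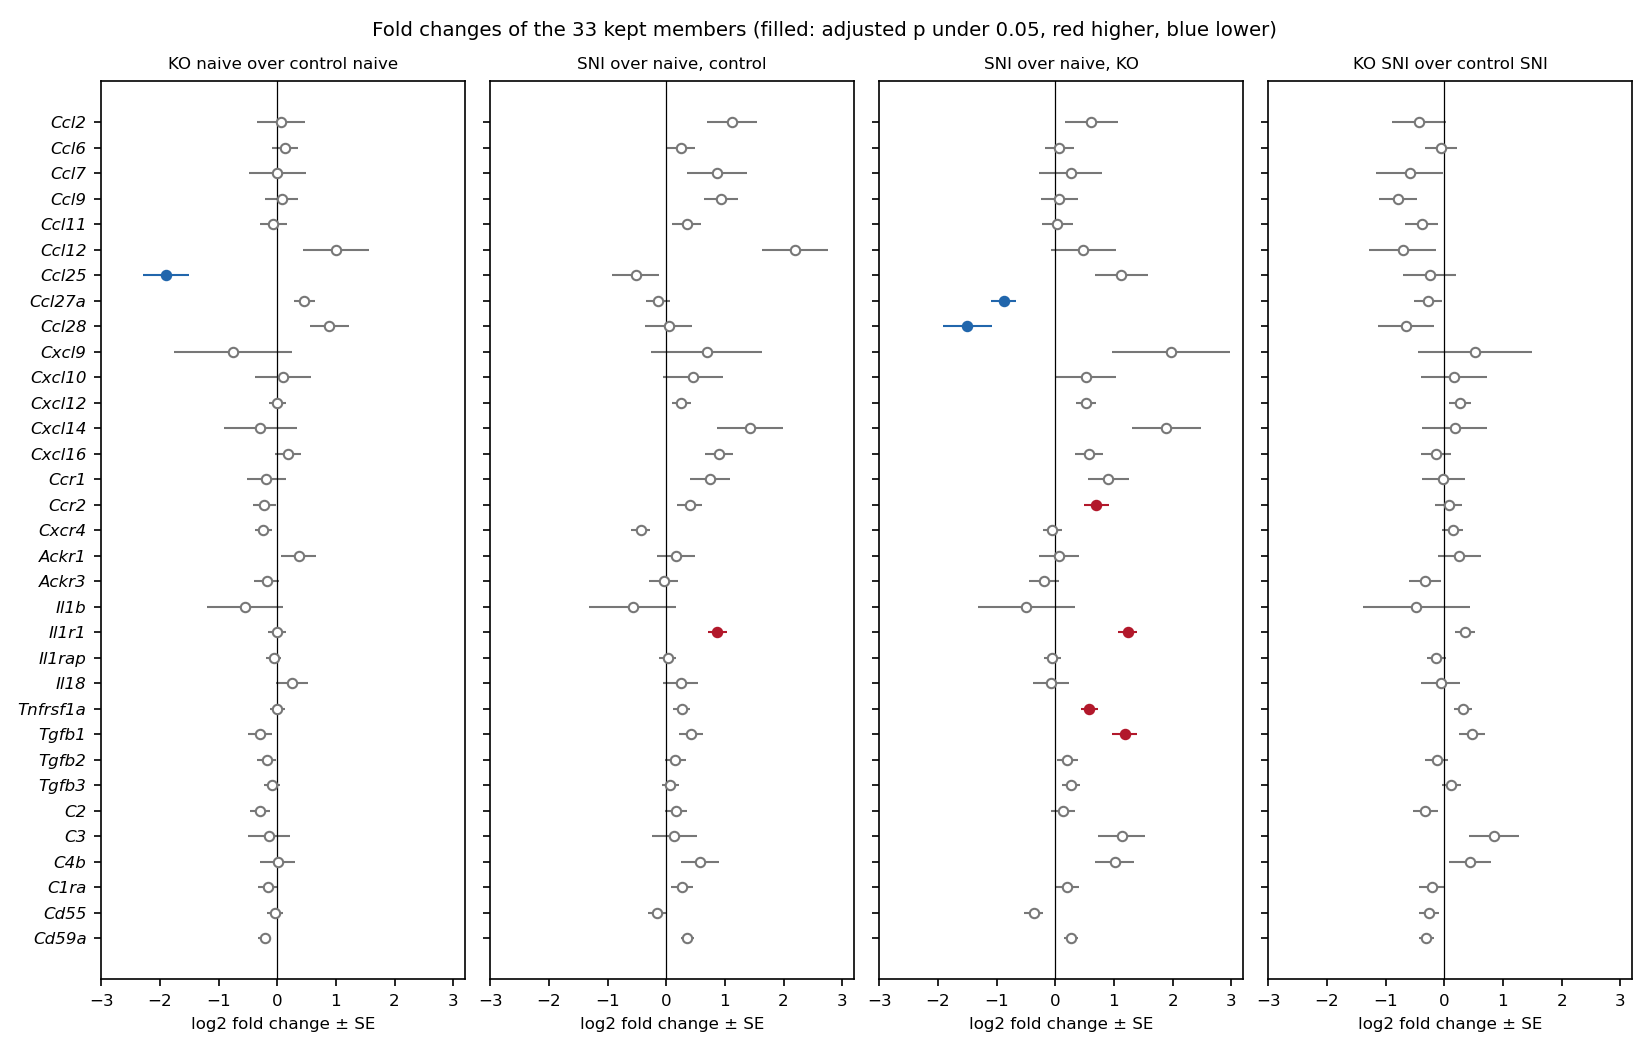
Log2 fold change ± SE of each kept member in 4 comparisons from the fit over all 15 libraries. Filled points have an adjusted p under 0.05 (red higher, blue lower): 1 in knockout against control naive, 1 for SNI in control, 6 for SNI in knockout and 0 in knockout against control after SNI.

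Several CC chemokines differed widely between injured animals of 1 group. Ccl2, Ccl7 and Ccl12, which draw monocytes through Ccr2, and Ccl9, a mouse chemokine of macrophages that acts through Ccr1, were highest in control SNI 23 and lowest in control SNI 15. Ccl2 had 2.02, 5.97 and 2.10 CPM in knockout SNI and 2.09, 4.65 and 7.98 CPM in control SNI libraries, against 1.81 to 3.07 CPM in knockout naive and 1.37 to 3.25 CPM in control naive libraries. Ccl7 reached 8.85 CPM and Ccl9 reached 7.55 CPM in control SNI 23, whereas all knockout SNI values lay at or below 3.41 and 3.50 CPM. Control SNI 23 is also the library with the fewest counts and the most mitochondrial ones. Its mast cell markers (6 genes) summed to 38.6 CPM, the highest of the 15. Its neutrophil, fibroblast and meninges, and satellite glia markers were also the highest, at 855, 2788 and 4097 CPM. Its sensory neuron markers, at 10471 CPM, were the lowest. The part of these markers, of depth and of mitochondrial counts in its chemokine levels was not tested. Ccl11 had 12.5, 14.8 and 13.8 CPM in knockout SNI, against 12.1, 16.5, 14.8 and 10.1 CPM in knockout naive libraries, and 11.7, 16.7 and 26.8 CPM in control SNI, against 19.7, 9.99, 16.5, 13.1 and 10.9 CPM in control naive libraries. Ccl6, a ligand of Ccr1, stayed between 3.75 and 8.20 CPM, and neither it nor Ccl11 was called.

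Ccl25 was spread in injured libraries. It had 1.77, 7.20 and 5.10 CPM in knockout SNI libraries, against the 2.03 to 2.48 CPM of knockout naive ones (log2 1.13, SE 0.454, adjusted p = 0.126). In control SNI libraries it had 8.66, 2.17 and 6.47 CPM, against 5.14 to 11.3 CPM in control naive ones (log2 -0.52, SE 0.396, adjusted p = 0.552). Knockout SNI 13 and control SNI 18 thus lay at the level of the naive knockouts, and the other injured libraries lay at 5.10 CPM or more. The genotypes that separate without injury overlapped after it.

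Knockout SNI 19 was the highest of its group for 25 of 33 members (75.8%), against 31.8% of all tested genes, and stood far above the other replicates for Cxcl9, Cxcl10, C3 and C4b. Cxcl9 and Cxcl10, ligands of Cxcr3 that interferon-gamma induces, had 0.253, 8.05 and 0.400 CPM and 2.53, 14.7 and 3.40 CPM in the knockout SNI libraries, with the middle value in each case that of replicate 19. In control SNI libraries Cxcl9 had 4.38, 0.619 and 0.863 CPM and Cxcl10 had 9.07, 5.06 and 4.10 CPM, highest in control SNI 15. The library that led both genes in controls was therefore the one with the lowest Ccl2, Ccl7, Ccl9 and Ccl12. C3, the central opsonin, had 18.3, 65.0 and 25.9 CPM in knockout SNI, against 15.6, 17.8, 18.8 and 14.5 CPM in knockout naive libraries (log2 1.13, SE 0.396, adjusted p = 0.0882). C4b, the source of the C3 convertase with C2, had 42.8, 103 and 56.6 CPM in knockout SNI, against 29.6, 27.4, 49.3 and 27.6 CPM in knockout naive libraries (log2 1.01, SE 0.336, adjusted p = 0.0717). Both pairs of groups overlap, and 1 library carries most of the difference in each. C4b shares 34.6% of its 50-base words with other genes, chiefly C4a, which had 287 counts over all libraries.

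Knockout SNI 19 also stood apart in markers of other cells. Its macrophage markers summed to 633 CPM, against 442 and 472 CPM in the other knockout SNI libraries. Its injured neuron markers summed to 1847 CPM, against 1254 and 1587 CPM. Its neutrophil markers were lower, at 265 CPM, against 535 and 489 CPM. Its adipocyte markers (4 genes) summed to 64.2 CPM, against 1.26 and 2.20 CPM in the other knockout SNI libraries, and its T cell markers (7 genes, 2 tested) to 6.63 CPM, against 3.29 and 4.60 CPM. Cd3e, Cd3d and Trac stayed below 1 CPM in every library. It was also the one knockout SNI library with high Xist. The part of these in its chemokine and complement levels was not tested. In controls, C3 had 18.7, 29.9 and 10.8 CPM after SNI, against 12.5, 14.1, 24.6, 23.1 and 17.5 CPM in naive libraries, and C4b had 62.2, 58.2 and 26.8 CPM, against 28.6, 25.2, 43.0, 29.6 and 40.2 CPM. C2 and C1ra, proteases of the classical pathway, stayed between 2.82 and 4.65 CPM and between 4.82 and 10.4 CPM and were not called, and 38.7% and 50.8% of their 50-base words are shared with other genes.

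**Figure D4:**
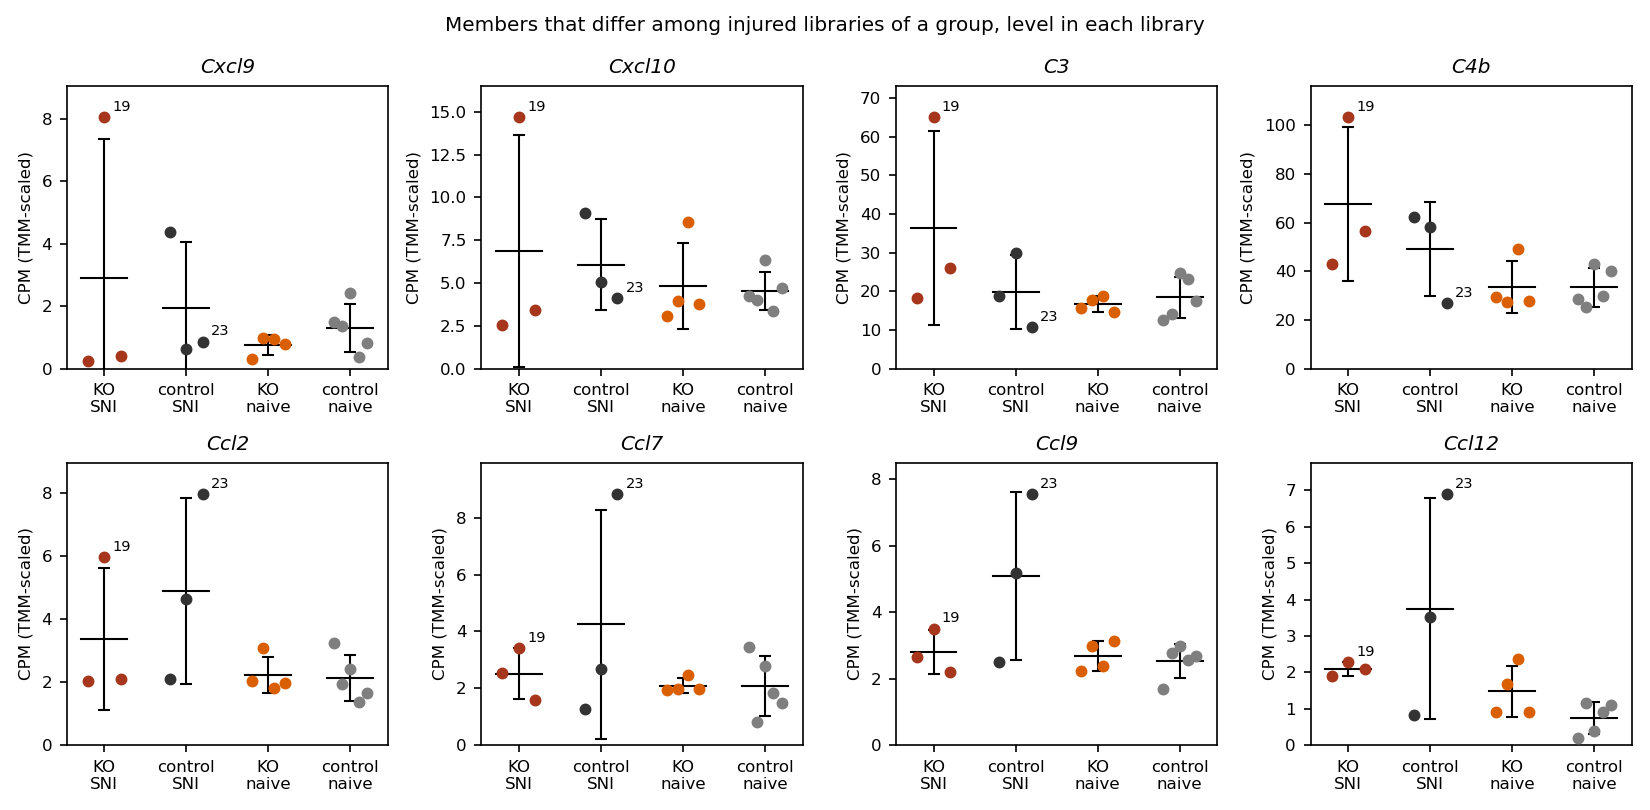
TMM-scaled CPM of 8 members that differ between injured libraries of the same group, with 1 point per library, the mean as a bar and ± 1 SD as whiskers, which end at the axis where they would pass 0 (KO is knockout). Knockout SNI 19 is labelled and leads Cxcl9, Cxcl10, C3 and C4b in its group, and control SNI 23 is labelled and leads Ccl2, Ccl7, Ccl9 and Ccl12.

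Cxcl12, the ligand of Cxcr4, had 37.5, 40.8 and 38.8 CPM in knockout SNI libraries, against 32.3, 27.8, 23.5 and 25.3 CPM in knockout naive ones, which do not overlap (log2 0.52, SE 0.169, adjusted p = 0.0601). In controls it had 32.9, 39.9 and 23.5 CPM after SNI, against 29.6, 31.0, 31.5, 20.7 and 23.3 CPM in naive libraries (log2 0.26, SE 0.164, adjusted p = 0.464). Cxcr4 was not called, at 12.3, 13.3 and 15.9 CPM in knockout SNI, against 12.6, 14.6, 12.8 and 17.5 CPM in knockout naive libraries (log2 -0.05, SE 0.165). In controls Cxcr4 had 13.3, 10.1 and 14.5 CPM after SNI, against 15.2, 13.4, 17.6, 18.04 and 19.8 CPM in naive libraries (log2 -0.43, SE 0.162, adjusted p = 0.209). Ackr3, the scavenger of Cxcl12, lay between 7.72 and 18.3 CPM and was not called. Cxcl16 had 8.97, 16.9 and 9.70 CPM in knockout SNI, against 9.15, 7.04, 7.41 and 8.36 CPM in knockout naive libraries (log2 0.58, SE 0.240, adjusted p = 0.133). Cxcl14, a chemokine of epithelia and some neurons, had 0.379, 3.98 and 1.40 CPM in knockout SNI, against 0.297 to 0.665 CPM in knockout naive libraries (log2 1.90, SE 0.590, adjusted p = 0.0514), and lay near the counting limit in most libraries.

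Ackr1 varied among controls without injury. It had 115, 64.0 and 125 CPM in knockout SNI, against 105, 84.6, 88.1 and 112 CPM in knockout naive libraries, and 120.4, 74.8 and 58.3 CPM in control SNI, against 97.3, 99.1, 92.3, 45.3 and 43.3 CPM in control naive libraries. The naive controls fell into 3 high and 2 low values, the low ones being replicates 6 and 7, and no comparison was called. Cd55 had 415, 274 and 318 CPM in knockout SNI, against 402, 461, 429 and 443 CPM in knockout naive libraries (log2 -0.37, SE 0.160, adjusted p = 0.148), and 337, 328 and 541 CPM in control SNI, against 414, 456, 419, 440.4 and 499 CPM in control naive libraries (log2 -0.15, SE 0.152, adjusted p = 0.670). In each genotype 2 injured libraries lay below the naive range. Cd59a had 120.3, 121 and 119 CPM in knockout SNI, against 86.6, 109, 94.4 and 109 CPM in knockout naive libraries (log2 0.27, SE 0.124, adjusted p = 0.175), and 121, 155 and 170.3 CPM in control SNI, against 128, 132, 103, 104 and 111 CPM in control naive libraries (log2 0.36, SE 0.118, adjusted p = 0.140). Ccr1, a receptor of macrophages and neutrophils, had 4.30, 2.84 and 3.90 CPM in knockout SNI, against 1.43 to 2.87 CPM in knockout naive libraries (log2 0.91, SE 0.357, adjusted p = 0.113).

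**Figure D5:**
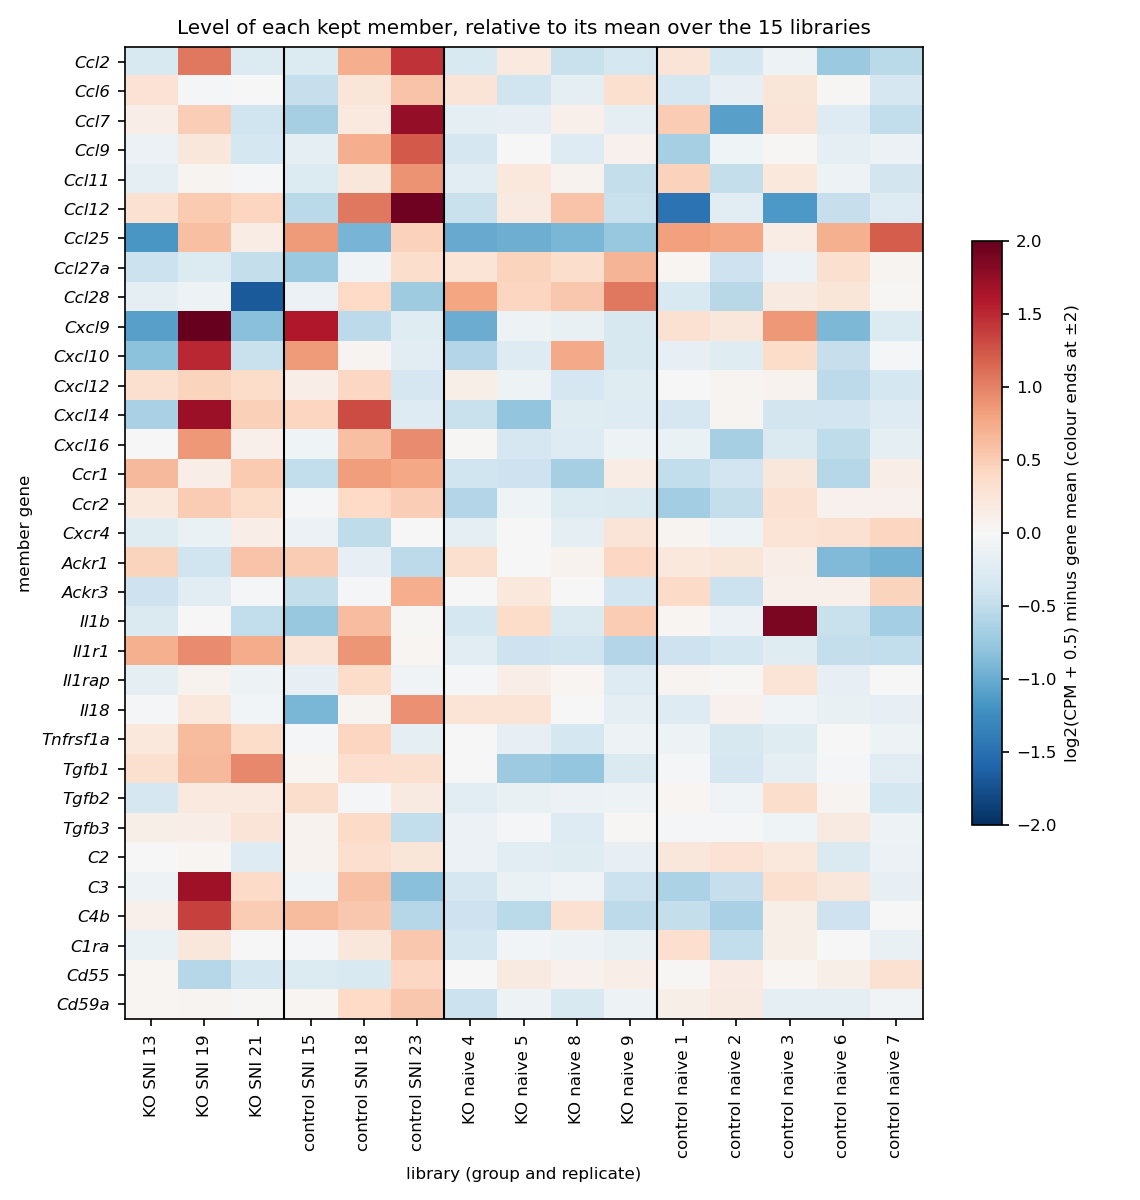
Log2(CPM + 0.5) of each kept member minus its mean over the 15 libraries, with libraries in columns by group and genes in rows by role (red above the mean, blue below it, colours end at 2 units). Il1r1 is above its mean in all 6 SNI columns, by little in control SNI 23, and the columns of knockout SNI 19 and control SNI 23 hold the deepest reds for Cxcl9, Cxcl10, Cxcl14 and C3 and for Ccl2, Ccl7, Ccl9 and Ccl12.

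Knockout against control after injury asks whether these genes differ between the genotypes in injured ganglia. No member was called by edgeR, DESeq2 or limma-voom, against 1.04%, 6.94% and 0.783% of all genes tested by each. At an unadjusted p under 0.05 edgeR gave 2 of 33, or 6.06%, against 22.7% of all genes, and DESeq2 and limma-voom gave 3 each. Groups did not overlap for 1 of 33, C2, or for 16.2% of all tested genes. C2 had 3.54, 3.69 and 2.90 CPM in knockout SNI, against 3.75, 4.65 and 4.32 CPM in control SNI libraries (log2 -0.33, SE 0.211, adjusted p = 0.360). The smallest p was that of Ccl9, at 2.65, 3.50 and 2.20 CPM in knockout SNI, against 2.50, 5.16 and 7.55 CPM in control SNI libraries (log2 -0.79, SE 0.327, 95% interval -1.48 to -0.10, adjusted p = 0.173). All 9 CC chemokines had a negative log2 change and the median of the 9 was -0.43, but 3 of the 9 were positive without control SNI 23, and 7 of the 9 were positive against control SNI 15 alone. Without the wt controls, which leaves control SNI 15 alone in its group, the median log2 change of the 33 members was 0.25. It was -0.13 with all libraries. Of the members that rose with injury in knockouts, Il1r1 had a log2 change of 0.35 (95% interval -0.01 to 0.72), Tnfrsf1a of 0.32 (-0.01 to 0.65) and Tgfb1 of 0.47 (-0.00 to 0.94), with adjusted p of 0.231, 0.227 and 0.220. Differences as large as the upper ends of these intervals therefore remain possible at this sample size. Without control SNI 15, Ccl9 and Cd59a were called lower (6.06% of members, against 20.6% of all tested genes), and without control SNI 18, Il1r1 was called higher (3.03%, against 2.53%).

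The interaction of genotype and injury asks directly whether the injury change differs between genotypes. No member and 0% of all tested genes passed in the edgeR test, and 5 members had an unadjusted p under 0.05 (5 by DESeq2 and 3 by limma-voom). That is 15.2% of the members, against 13.4% of all tested genes. They were Ccl25 (log2 difference of injury changes 1.65, SE 0.603), Ccl12 (-1.71, SE 0.798), Ccl28 (-1.54, SE 0.578), Tgfb1 (0.77, SE 0.298) and Ccl27a (-0.74, SE 0.300), with adjusted p of 0.365 to 0.369. A positive value means a larger injury change in knockout than in control. Il1r1, called in both genotypes, had a difference of 0.36 (SE 0.229, 95% interval -0.12 to 0.85, adjusted p = 0.456). Calls of Tgfb1, Tnfrsf1a, Ccr2, Ccl27a and Ccl28 in knockouts and not in controls are thus not shown to differ between the genotypes. Without control SNI 15, 4 members passed: Ccl9, Ccl12, Ccl25 and Ccl27a (adjusted p 0.0411 to 0.0495), or 12.1% of the members, against 7.17% of all tested genes under the same omission. The median difference of the 33 members was -0.03 with all libraries and 0.29 without the wt controls, where control SNI 15 stands alone.

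Of 114 other genes of the same systems, listed by role and not by how they moved, 79 were tested. In knockout SNI against knockout naive, 12 rose and 1 fell, and in control SNI against control naive, 9 rose and none fell. Of all 16976 tested genes, 7.17% rose and 2.94% fell in the knockout comparison, and 2.48% were called in the control one. The counts by system below are to be read beside these shares. The fractalkine receptor Cx3cr1, a macrophage gene, rose in each genotype (log2 1.30 in knockout and 1.55 in control). The C1q chains C1qa and C1qc, which start the classical pathway, rose by 0.81 and 0.70 in knockout and by 1.05 and 1.24 in control, with C1qb at 1.37 in control. The complement receptor Cr2 rose by 1.22 in knockout and 1.04 in control, and Masp2, a protease of the lectin pathway, fell by 0.50 in knockout. Of 16 other TGF-beta system genes 5 rose in knockout, among them the receptors Tgfbr2 (0.79) and Tgfbr3 (0.48) and the latent binding proteins Ltbp1 (1.01) and Ltbp4 (0.77), and 2 rose in control, Tgfbr1 (0.54) and Ltbp1 (0.75). Of 23 other interleukin-1 and TNF genes 2 rose in knockout, the second TNF receptor Tnfrsf1b (0.92) and the NF-kappaB subunit Rela (0.40), and none in control. Ccl8, another CC chemokine, rose in control (log2 3.67, SE 0.844). In naive animals 1 of the 79 rose and 1 fell in knockout, where 1.89% of all tested genes were called. Cx3cl1, fractalkine, a chemokine of neurons, rose by 0.72 (SE 0.145, adjusted p = 0.0141), and the lectin pathway protease Masp1 fell by 0.57 (adjusted p = 0.0353). None passed in knockout against control after injury or in the interaction, where 1.04% and 0% of all tested genes passed. These comparisons share libraries, and no difference in the injury change between the genotypes was tested beyond the interaction.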

How the data were processed

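The deposited table holds the authors' raw read counts per gene for 15 libraries of total RNA (Trizol, TruSeq Stranded mRNA, per the labels' protocols). HTSeq 0.6.1 and TopHat2 2.0.4 appear, beside Cufflinks, SAMtools, DESeq2 and the build GRCm38, in the submitters' processing notes, with no roles. No source used here states the annotation release, the strand setting or what was done with multiply matching reads. Symbols, exons and 3' UTRs came from GENCODE M21 (37607 of 39179 identifiers had a symbol, and the rest held 0.523% of counts). Intervals and floors of 3 counts cover counting error only.

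Genes were filtered with filterByExpr (minimum count 10), which left 16976 of 27310 genes with a count. All libraries entered a single 4-group model in edgeR 4.0.16 (TMM, robust quasi-likelihood, 11 residual degrees of freedom), two-sided, with Benjamini-Hochberg adjustment over all genes and a threshold of 0.05. The SE is the log2 fold change over the square root of F, and 95% intervals use the total degrees of freedom of the test. CPM is scaled by TMM. Values are given per library for each called member and for the 2 members of highest mean CPM per role. Further members named (Il1rap, Ccl2, Ccl12, Cxcl9, Cxcl10, Cxcl14, Ccr1, C2, Ccl9) were chosen after their values were seen. Members and lists were chosen with earlier results of these data known. Alternatives were DESeq2 1.42.0 size factors and Wald test, limma-voom (3.58.1), no filter, 2-group fits, no wt controls and each library left out, and, chosen after seeing the data, an Xist covariate, the range of animal numbers as a term among naive libraries, and leaving out knockout SNI 19 with control SNI 23. Exact 50-base words shared between annotated transcripts were counted. R 4.3.3, Python 3.11.15 and matplotlib 3.10.9 were used. Not every counted gene of the other lists is named, and 1 is not reported here.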

Additional observations from a re-analysis of the deposited data

Results flagged for a closer look

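In 66 member groups of 4 or 5 naive libraries, 6 held 1 library far from the others by Dixon's test, where chance gives about 1 in 20. Knockout naive 8 was high for Ccl7 (2.47 CPM, the others 1.93 to 1.98), Cxcl10 (8.55 CPM, the others 3.05 to 3.97) and C4b (49.3 CPM, the others 27.4 to 29.6). Among control naive libraries, replicate 2 was high for Cxcl14 (0.919 CPM, the others 0.547 to 0.646), replicate 3 for Il1b (5.23 CPM, the others 0.462 to 1.08) and replicate 6 for Tgfb3 (22.3 CPM, the others 18.3 to 19.1). The groups of 3 injured libraries were too small for this test.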

How the results depend on the processing

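Every called log2 change kept its sign under all 15 omissions and all other settings run for it. The number of members called moved as follows, and the cause was not tested. In knockout against control naive (1 called) it was 0 with no filter on low counts, where 1% of all tested genes were called. It was 2 with only those groups fitted (6.06%, against 6.18% of all tested genes). It was also 2 with the range of animal numbers as a term (6.06%, against 5.83%). Omissions of single libraries gave 0 to 1, where 0.892% to 4.12% of all tested genes were called. For injury in control (1 called) it was 3 with DESeq2 size factors and 3 with the DESeq2 Wald test (9.09%, against 2.62% and 3.97% of all tested genes). It was 2 with no filter (6.06%, against 1.47%) and 0 with only those groups (against 1.28%). It was 4 without knockout SNI 19 and control SNI 23 together (12.1%, against 4.73%). The omissions gave 1 to 7, with 2 without knockout SNI 13 or 19 (6.06%, against 2.37% and 2.32%). For injury in knockout (6 called) it was 8 with DESeq2 size factors, 10 with the DESeq2 Wald test, 11 with only those groups, 12 without the wt controls, and 3 to 10 over the omissions. Calls over all tested genes moved as well, and were 10.4%, 13.3%, 27.0% and 27.0% under the first 4 of these settings, against 24.2%, 30.3%, 33.3% and 36.4% of the members. It was 0 to 2 for knockout against control after injury and 0 to 4 for the interaction over the omissions, and 0 under every other setting run for them. The fit of only the groups compared cannot be made for the interaction. No paired analysis was possible because the groups share no replicate numbers. Depth limits the members near the floor, such as Cxcl9, Cxcl14, Il1b and Ccl28, and groups of 3 limit every injured comparison.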

Other observations

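Ccl25 lies on chromosome 8 (GRCm38, 4325210 to 4360020). Of the 20 genes whose log2 CPM followed that of Ccl25 most closely over the 15 libraries, in either direction, 8 lie on chromosome 8, where 5.21% of tested genes lie. These genes were picked by likeness in the same libraries, and the libraries share groups, so this is a description only. The closest of the 20 was Sycp1, on chromosome 3, whose product pairs chromosomes in meiosis. It had 0 counts in all 4 knockout naive libraries, in knockout SNI 13 and in control SNI 18, which are the 6 libraries of lowest Ccl25, and averaged 2.69 ± 0.481 CPM in control naive libraries (SD, n = 5). Among those on chromosome 8, Hook3 averaged 127 ± 8.74 CPM in knockout naive libraries (SD, n = 4) and 90.5 ± 5.16 CPM in control naive ones (n = 5), Fut10 averaged 6.26 ± 0.907 and 2.41 ± 1.19 CPM, and Insr averaged 43.7 ± 4.78 and 33.1 ± 3.47 CPM. None of these 3 was called (adjusted p 0.0872 for Fut10, 0.0559 for Hook3 and 0.230 for Insr). Sycp1 was called lower in knockout naive against control naive libraries (log2 -7.67, SE 1.37, adjusted p = 0.0141). The size of that change is loose, since the knockout side held 0 counts. The mixed strain background of the animals is given by the labels, and its part in this was not tested.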
